A study of Rattus norvegicus with 10 samples.

Results

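The insulin-like growth factor (IGF) axis is described here by 5 genes, found as the spotted RefSeq accessions that could be matched to a rat gene with a symbol starting with Igf. These were the receptor Igf2r (NM_012756) and the binding proteins Igfbp2 (NM_013122), Igfbp3 (NM_012588), Igfbp5 (NM_012817) and Igfbp6 (NM_013104), out of 4803 accessions, of which 1177 could be given a gene name and 3626 could not, and out of 18 rat genes of that name in the RefSeq table. The growth factors themselves, their signalling receptor Igf1r and the other binding proteins were not matched and were not analysed here, and the unnamed accessions may hold some of them. The paper states that a spot for IGF-I remained after its filtering. It also states that the array did not pick up the IGF-I increase known from in situ hybridization. That spot was not identified here. All 5 genes had a value on every array and entered all 5 main comparisons.

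Female Wistar rats 12 weeks old were used. In LOAD rats (n = 5) the right tibia was bent at 4 points for 300 cycles at 2 Hz with a peak setting of 60 N, and in SHAM rats (n = 5) the right tibia was squeezed between opposed pads without bending. The left tibia of each rat was the untreated contralateral control, and RNA was taken 6 h after the single session from the shaft of the tibia once both ends, the periosteum and the marrow had been removed. Each of the 10 two-colour arrays set a treated tibia against a control tibia, so that every gene had a log2 ratio per array and a log2 level per tibia. The shaft holds osteocytes, osteoblasts, lining cells and vessels together, and in such bulk RNA fewer cells of a type and less RNA per cell cannot be told apart.

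IGFs are growth factors stored in bone matrix and made by bone cells, and they act through a tyrosine kinase receptor on the cell surface. In the extracellular fluid they are held by IGF binding proteins, which prolong their life, carry them and, depending on the protein and on its cleavage by proteases, withhold them from the receptor or deliver them to it. Igf2r, the cation-independent mannose 6-phosphate receptor, takes IGF-II into the cell for degradation and also sorts lysosomal enzymes. Igfbp3 is the main carrier of IGFs in blood, Igfbp5 binds to bone matrix and is abundant in bone, Igfbp2 is made by osteoblasts among other cells, and Igfbp6 binds IGF-II in preference to IGF-I.

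The sequence before the RefSeq start is shown for Igfbp2 and Igfbp6, the pair whose levels went together over the tibiae, and for Igfbp3, whose measured difference between the rats had the other sign, without passing a test. Each is the 250 bases before the start in the rat build GRCr8 as given by RefSeq, read along the gene. Capitals mark matches, on either strand, to the GC box GGGCGG, the CCAAT box CCAAT, the TATA box TATANA and the E-box CANNTG.
Igfbp2, chr9:81864561-81864810, plus strand: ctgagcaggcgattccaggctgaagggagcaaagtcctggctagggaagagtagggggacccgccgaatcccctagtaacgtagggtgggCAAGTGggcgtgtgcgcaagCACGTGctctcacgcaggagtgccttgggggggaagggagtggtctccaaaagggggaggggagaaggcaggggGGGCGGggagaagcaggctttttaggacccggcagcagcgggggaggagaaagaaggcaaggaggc
Igfbp6, chr7:135154669-135154918, plus strand: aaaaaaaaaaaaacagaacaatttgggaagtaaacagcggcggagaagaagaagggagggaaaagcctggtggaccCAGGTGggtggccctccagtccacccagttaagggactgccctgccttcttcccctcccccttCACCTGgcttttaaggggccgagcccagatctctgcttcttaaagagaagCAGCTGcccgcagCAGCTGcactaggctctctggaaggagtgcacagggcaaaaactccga
Igfbp3, chr14:86277945-86278194, minus strand: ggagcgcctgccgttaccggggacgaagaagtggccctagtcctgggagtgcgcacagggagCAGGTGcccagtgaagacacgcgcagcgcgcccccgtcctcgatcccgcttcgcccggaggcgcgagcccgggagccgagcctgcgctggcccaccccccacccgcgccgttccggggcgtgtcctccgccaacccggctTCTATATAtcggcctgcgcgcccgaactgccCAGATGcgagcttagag
Igfbp2 held 1 GC box and 2 E-boxes, Igfbp6 held 4 E-boxes, and Igfbp3 held 2 E-boxes and 2 overlapping TATA box matches in 1 stretch. No match to the CCAAT box was present in these 3 windows. Of 33469 rat windows of the same length, 30.5% held the GC box, 34.02% the CCAAT box, 24.2% the TATA box and 65.5% the E-box. The GC content was 64% for Igfbp2, 54.8% for Igfbp6 and 71.6% for Igfbp3, against a median of 51.2% over all windows. Igfbp2 and Igfbp5 are direct neighbours on chromosome 9 and are read on opposite strands.

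The data of the whole series set limits on these values. Per array 32 to 166 spots were under the minimum confidence of 0.11, and 52.4% to 81.6% of spots held signal in both channels, with LOAD 4 the poorest array in both respects. The 5 tested markers of bone-forming cells and osteocytes had signal in all 20 channels. All 7 tested skeletal muscle genes were lower in the loaded than in the control tibiae (median log2 ratio -0.66, 6 of them at an unadjusted p under 0.05, where 1.72% of all tested genes were lower), with a summed log2 level, over the 6 of them that had a value on every array, of 12.05 to 12.54 in LOAD treated tibiae and 12.10 to 13.61 in LOAD control tibiae. Among the 21 pairs of arrays with the same dye orientation the correlation over all spots ran from -0.35 to 0.49, and LOAD 2 was in both pairs under -0.3, although the labels and the headers state its dyes. The headers of LOAD 4 and SHAM 4 give tibia numbers that cross between 2 rats, so that the pairing within a rat is in doubt for those 2 arrays. The sample counted as SHAM 1 is named SHAM in its title, its description and its header, but LOAD in another label. In all 5 comparisons made here, 0 genes of the whole table had an adjusted p under 0.2 by limma, while 157 (LOAD ratio), 32 (SHAM ratio), 70 (LOAD minus SHAM), 206 (treated tibiae) and 234 (control tibiae) had an unadjusted p under 0.05. With its own stricter spot filtering and fewer genes, the paper did report genes at that threshold. They were found in LOAD against control tibiae and between the control tibiae of the groups. None of these was an Igf gene.

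How far each gene stood above background came first, because BlueFuse, the program that read the spots, gives a probability that a spot holds signal (P ON) in each channel. Igfbp2 was the clearest gene of the group, with a P ON of 1 in all 20 channels. Igfbp6 reached 0.5 in 19 channels, Igfbp3 in 17, Igfbp5 in 12 and Igf2r in 0. On the array as a whole 49.6% of accessions had signal in all channels and 8.22% in none.

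Igf2r had a P ON of 0.03 to 0.39, with a median of 0.095, and its intensity was below the dimmest spot with signal in 16 of 20 channels. Its log2 intensity over the row that carries no accession was 0.18 to 1.52 (median 0.57), against medians of 4.18 for Igfbp2, 2.69 for Igfbp3, 1.98 for Igfbp6 and 1.81 for Igfbp5. The receptor was thus not well above background in any tibia. The values given for it below are those of a spot near background and cannot be read as a fold change of the gene.

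The channels in which Igfbp3 and Igfbp5 had no signal were spread unevenly. Igfbp3 had signal in 4 LOAD treated tibiae and 3 LOAD control tibiae, against all 5 of each in SHAM rats. The channels without it were LOAD 2 treated at 0.22, LOAD 2 control at 0.28 and LOAD 1 control at 0.30. Igfbp5 had signal in 1 LOAD treated tibia and 3 LOAD control tibiae, against 4 SHAM treated and 4 SHAM control tibiae. Igfbp6 lacked signal only in the treated tibia of LOAD 4, with a P ON of 0.18. Over all spots of an array, 52.4% to 81.6% had signal in both channels in LOAD, against 68.9% to 76.6% in SHAM. Every LOAD array except LOAD 3 lay under the lowest SHAM array in this share. Fewer channels with signal in LOAD rats were thus not particular to these genes. Whether their counts go beyond the difference between the arrays was not tested.

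**Figure D1:**
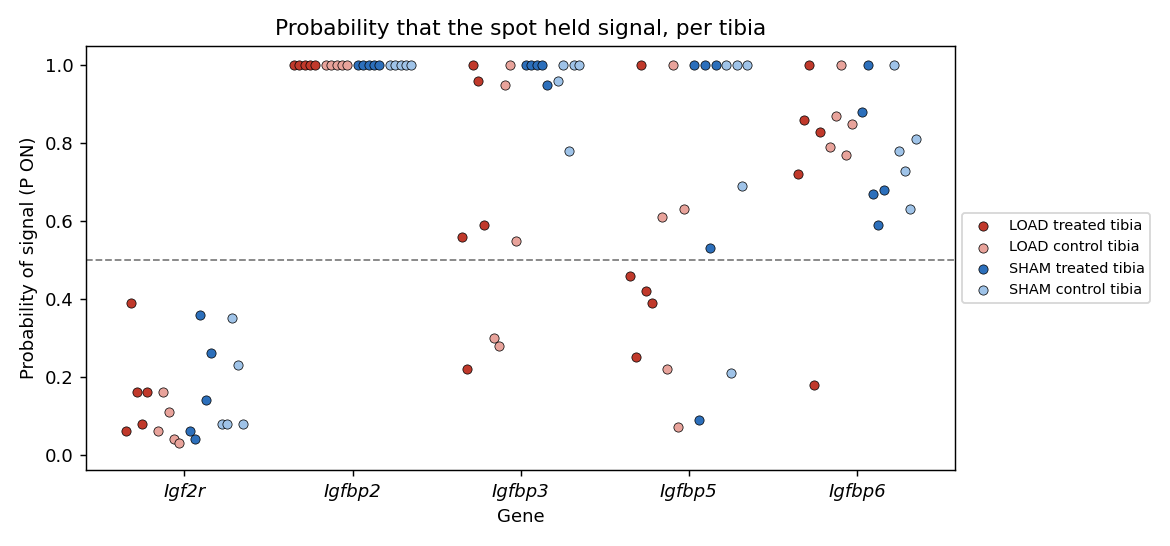
Probability of signal (P ON, vertical axis) of the 5 genes in each of the 20 tibiae, with LOAD treated, LOAD control, SHAM treated and SHAM control tibiae side by side and a dashed line at 0.5. All points of Igfbp2 lie at 1, and all points of Igf2r lie at or under 0.39.

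Whether loading altered these genes was read first from the ratio of the treated tibia to the contralateral control. None of the 4 binding proteins showed a shift in the loaded tibia that was larger than the spread between rats, and the ratio of Igf2r came from a spot near background. The log2 ratios of Igf2r were 0.11, 0.64, 0.42, 0.32 and 0.31 in LOAD 1 to 5, and -0.01, -0.21, 0.28, -0.33 and 0.58 in SHAM 1 to 5. All 5 LOAD ratios were above 0, as they were for 1.81% of the 4707 tested genes, and the SHAM ratios lay on both sides of 0 and overlapped the LOAD ratios.

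In the linear model over all genes the mean log2 ratio of that spot in LOAD was 0.36 ± 0.12 (SE, n = 5, unadjusted p = 0.0132, adjusted p = 1.00). At an unadjusted p under 0.05, 1.61% of all tested genes were higher in the loaded tibia. With intensities this low in both tibiae, the value cannot be read as a change of the receptor. In SHAM its mean was 0.06 ± 0.12 (SE, n = 5, unadjusted p = 0.623), where 0.68% of genes passed the same threshold in either direction. The difference LOAD minus SHAM was 0.30 ± 0.17 (95% interval -0.08 to 0.68, unadjusted p = 0.114, adjusted p = 0.999), against 1.49% of genes at an unadjusted p under 0.05. Within the 4 scan batches this difference was 0.49, 0.13, 0.65 and -0.28, so that it did not keep 1 direction. Batch 1 held 2 arrays of each group, and batches 2, 3 and 4 held 1 of each.

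The value also moved with the arrays and the processing. Without LOAD 2 the LOAD mean was 0.29 (unadjusted p = 0.0556), and with its 2 channels exchanged it was 0.10 (unadjusted p = 0.533), a check chosen after the data were seen. Without both arrays numbered 4 it was 0.37, with median centring 0.44 (unadjusted p = 0.0523) and without normalization 0.24 (unadjusted p = 0.480). Without SHAM 5 the difference LOAD minus SHAM was 0.43 (unadjusted p = 0.0182). With 50 added to every intensity, which weights dim spots less, the LOAD mean was 0.20 (unadjusted p = 0.0291). The difference LOAD minus SHAM was then 0.14 (unadjusted p = 0.223). Igf2r, Igfbp3 and Igfbp5 dropped out of the fit when only spots with signal were kept.

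Igfbp2 had log2 ratios of -0.05, 0.05, 0.27, -0.26 and 0.25 in LOAD 1 to 5, and -0.01, 0.28, 0.00, 0.11 and -0.29 in SHAM 1 to 5. The ratios lay on both sides of 0 in either group. Its mean was 0.05 ± 0.10 in LOAD and 0.02 ± 0.10 in SHAM (SE, n = 5 each), and the 95% interval of the difference, -0.27 to 0.33, was the narrowest among the 5 genes.

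Igfbp3 had log2 ratios of 0.25, -0.29, 0.48, -0.05 and 0.26 in LOAD, and 0.23, -0.21, 0.55, -0.10 and -0.09 in SHAM. In either group there were ratios on both sides of 0, and the groups overlapped over most of their range. The difference LOAD minus SHAM was 0.05 ± 0.18 (95% interval -0.34 to 0.44, unadjusted p = 0.784).

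Igfbp5 was the most variable ratio of the 5 genes. It was -0.21, 0.02, 0.07, 0.76 and -0.30 in LOAD, and 0.13, -0.29, 0.01, -0.55 and 0.74 in SHAM. A single array stood high in each group, LOAD 4 and SHAM 5, but the P ON of Igfbp5 was 0.42 and 0.07 in the treated and the control tibia of LOAD 4, and 1 in both tibiae of SHAM 5. The difference LOAD minus SHAM was 0.06 ± 0.25 (95% interval -0.48 to 0.61, unadjusted p = 0.811).

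Igfbp6 had log2 ratios of -0.14, 0.07, 0.32, -0.57 and 0.16 in LOAD, and -0.45, 0.17, 0.24, -0.48 and 0.05 in SHAM. LOAD 4, the lowest value, came from the treated tibia without signal. The difference LOAD minus SHAM was 0.06 ± 0.20 (95% interval -0.37 to 0.49, unadjusted p = 0.762). For all 4 binding proteins the intervals reached to -0.27 or lower and to 0.33 or higher, and differences within them could not be resolved with 5 rats a group.

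**Figure D2:**
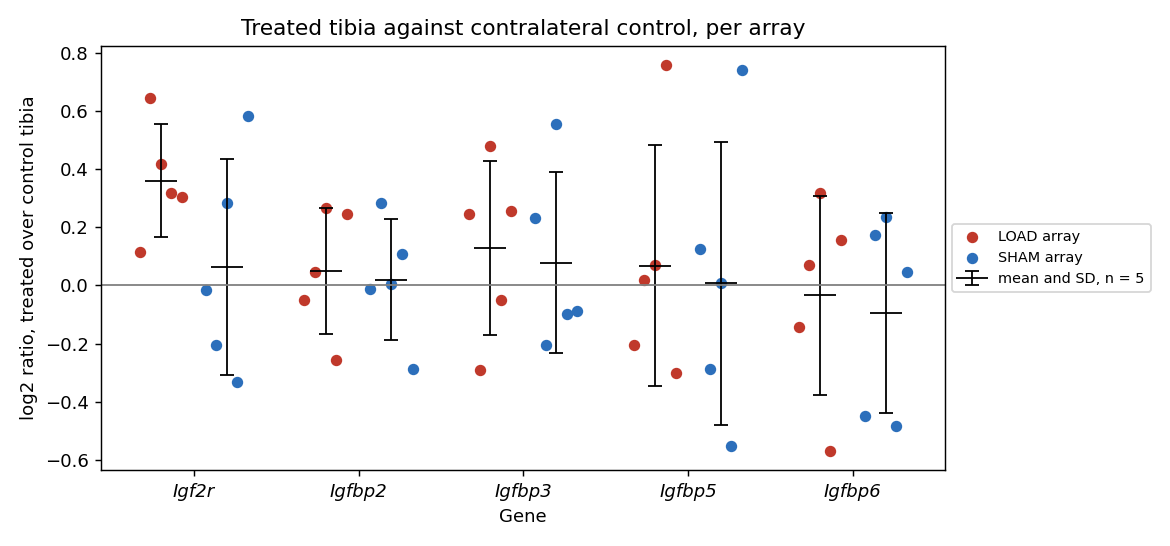
Log2 ratio of treated over contralateral control tibia (vertical axis) for the 5 genes, with a point per array, LOAD left of SHAM, and the mean with SD of 5 arrays in black. The LOAD points of Igf2r lie between 0.11 and 0.64, and all other groups of points lie on both sides of 0.

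The levels in single tibiae were compared next between the 2 groups of rats, once for the treated and once for the control tibiae, which asked whether the rats differed in bones that were not loaded. Igfbp6 and Igfbp2 were higher, and Igfbp3 lower, in LOAD than in SHAM rats, in the treated and in the control tibiae alike. The adjusted p of each difference was above the threshold of 0.2. The mean log2 ratio of treated over control tibia of these 3 genes lay between -0.09 and 0.13 in LOAD and SHAM alike.

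Igfbp6 levels (log2) were 7.85, 7.88, 7.81, 7.48 and 8.06 in the treated tibiae of LOAD 1 to 5, against 7.25, 7.55, 7.11, 7.07 and 7.12 in those of SHAM 1 to 5. In the control tibiae they were 7.99, 7.81, 7.49, 8.05 and 7.90 in LOAD, against 7.70, 7.38, 6.87, 7.56 and 7.07 in SHAM. The groups overlapped at 1 tibia on each side among the treated bones, LOAD 4 at 7.48 and SHAM 2 at 7.55, and a little more among the control bones.

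The difference was 0.59 ± 0.22 in the treated tibiae (SE, 95% interval 0.12 to 1.06, 1.51-fold, unadjusted p = 0.0159, adjusted p = 0.922) and 0.53 ± 0.22 in the control tibiae (95% interval 0.06 to 1.00, 1.44-fold, unadjusted p = 0.0285, adjusted p = 0.843). At an unadjusted p under 0.05, 1.97% of the 4472 tested genes were higher in the treated and 2.01% in the control tibiae of LOAD rats. Within the 4 scan batches the difference was 0.46, 0.70, 0.40 and 0.94 in the treated and 0.36, 0.62, 0.49 and 0.83 in the control tibiae, thus above 0 in each batch. Batches 2, 3 and 4 held only 1 array of each group, so that their values set 1 array against 1 other. The treated and the control values came from the same arrays and are not independent.

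Averaged over both tibiae of an array, Igfbp6 was 7.83 ± 0.13 in LOAD rats and 7.27 ± 0.22 in SHAM rats (SD, n = 5 each). The LOAD means ran from 7.65 to 7.98 and the SHAM means from 6.99 to 7.48, without overlap. Such a separation with LOAD on top occurred for 12 of 4472 genes (0.268%). The reverse, with SHAM on top, occurred for 39, so that a separation by itself was not particular to Igfbp6. A linear model of these means over all genes was chosen after the data were seen. In it the Igfbp6 difference was 0.56 ± 0.14 (SE, unadjusted p = 0.00206, adjusted p = 0.815). At an unadjusted p under 0.05, 1.7% of genes were higher, and 236 genes passed in either direction. Leaving out any 1 array kept the difference between 0.49 and 0.61, and without both arrays numbered 4 it was 0.59. These levels were scaled between arrays. The unscaled intensities of Igfbp6 overlapped, at 86.5 to 390 in LOAD treated and 86.6 to 223 in SHAM treated tibiae. In control tibiae they were 128 to 351 in LOAD and 108 to 335 in SHAM. How far the separation rests on the scaling was not tested.

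Igfbp2 levels were 9.71, 9.91, 9.84, 9.26 and 10.09 in the treated tibiae of LOAD rats, against 9.55, 9.80, 9.45, 9.31 and 8.61 in those of SHAM rats. In the control tibiae they were 9.76, 9.87, 9.58, 9.51 and 9.85 in LOAD, against 9.56, 9.52, 9.44, 9.21 and 8.90 in SHAM. Both tibiae of SHAM 5 were the lowest of all, and the groups overlapped in either kind of tibia.

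The Igfbp2 difference was 0.42 ± 0.20 in the treated tibiae (SE, 95% interval 0.01 to 0.83, 1.34-fold, unadjusted p = 0.0450, adjusted p = 0.922) and 0.39 ± 0.20 in the control tibiae (95% interval -0.02 to 0.80, 1.31-fold, unadjusted p = 0.0618, adjusted p = 0.843). Without SHAM 5 the treated difference was 0.24 (unadjusted p = 0.190) and the control difference 0.28. Within the scan batches it was 0.14, 0.40, -0.06 and 1.48 in the treated and 0.28, 0.13, 0.31 and 0.95 in the control tibiae, the last batch being the one that holds SHAM 5. With the scan batch as a block, added after the data were seen, the unadjusted p was 0.0348 in the treated and 0.0488 in the control tibiae (adjusted p = 0.690 and 0.634).

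Igfbp3 levels were 7.11, 6.54, 8.20, 8.71 and 7.79 in the treated tibiae of LOAD rats, against 7.90, 8.60, 8.74, 8.62 and 7.54 in those of SHAM rats. In the control tibiae they were 6.87, 6.83, 7.73, 8.76 and 7.53 in LOAD, against 7.67, 8.80, 8.19, 8.72 and 7.63 in SHAM. LOAD 1 and LOAD 2 were low in both tibiae, and these were the arrays with channels without signal, while LOAD 4 was as high as the highest SHAM tibiae.

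The Igfbp3 difference was -0.61 ± 0.35 in the treated tibiae (SE, 95% interval -1.34 to 0.12, 0.655-fold, unadjusted p = 0.0954, adjusted p = 0.927) and -0.66 ± 0.35 in the control tibiae (95% interval -1.39 to 0.07, 0.633-fold, unadjusted p = 0.0726, adjusted p = 0.843). Within scan batches it was -1.42, -0.54, 0.09 and 0.24 in the treated and -1.39, -0.46, 0.04 and -0.10 in the control tibiae, so that most of it lay in the first batch. With the scan batch as a block the unadjusted p was 0.0448 in the treated and 0.0314 in the control tibiae (adjusted p = 0.690 and 0.632). Without LOAD 2 the treated difference was -0.33 (unadjusted p = 0.333), and without LOAD 4 the control difference was -0.98 (unadjusted p = 0.00742, adjusted p = 0.847).

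For Igfbp5 and Igf2r the differences between the groups of rats were smaller than their SE. Igfbp5 levels ran from 6.94 to 7.76 in LOAD treated and from 6.29 to 8.31 in SHAM treated tibiae, and from 6.92 to 7.53 in LOAD control and from 6.58 to 8.19 in SHAM control tibiae. The Igfbp5 difference was -0.16 ± 0.34 in the treated tibiae (SE, 95% interval -0.87 to 0.56, unadjusted p = 0.653) and -0.22 ± 0.34 in the control tibiae (-0.93 to 0.50, unadjusted p = 0.533). SHAM rats held both the highest and the lowest Igfbp5 levels. For Igf2r, whose P ON stayed under 0.5 in every tibia, the measured differences were 0.10 ± 0.24 in the treated tibiae (95% interval -0.41 to 0.61) and -0.20 ± 0.24 in the control tibiae (-0.70 to 0.31).

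**Figure D3:**
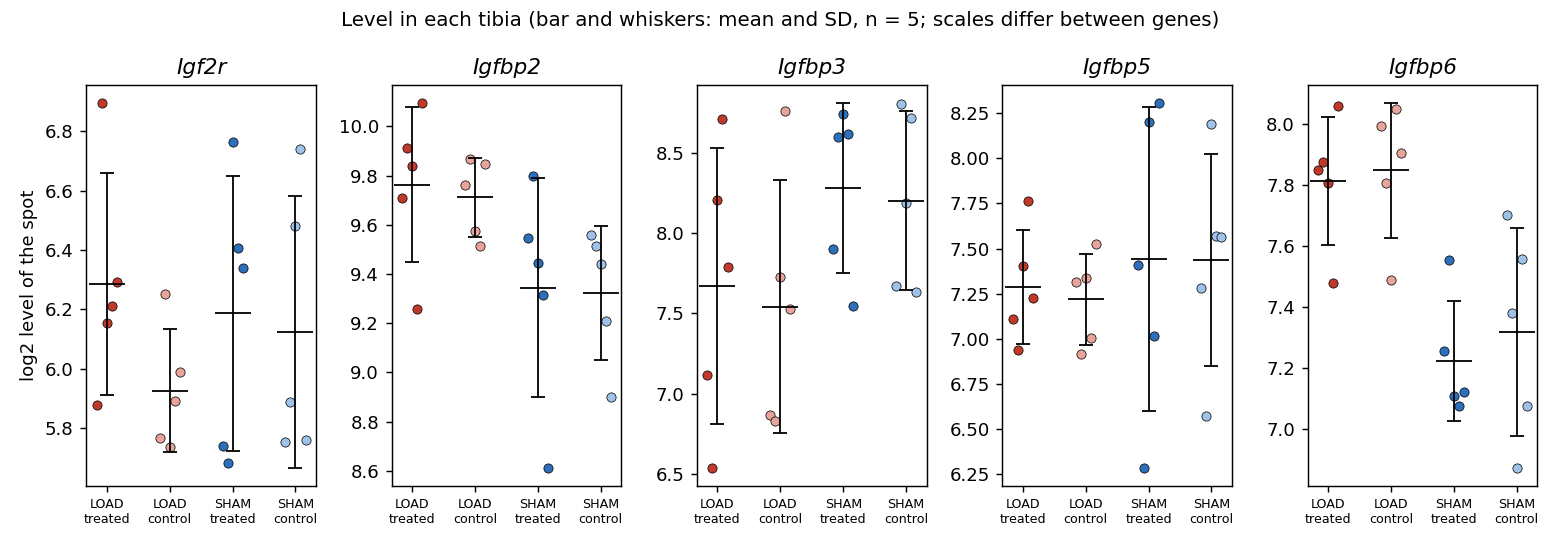
Log2 level of the spot (vertical axis, with its own scale for each gene) in the 5 tibiae of each of the 4 kinds, with mean and SD. Igfbp6 and Igfbp2 lie higher and Igfbp3 lower in LOAD than in SHAM rats in both kinds of tibia, with overlap of single tibiae.

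**Figure D4:**
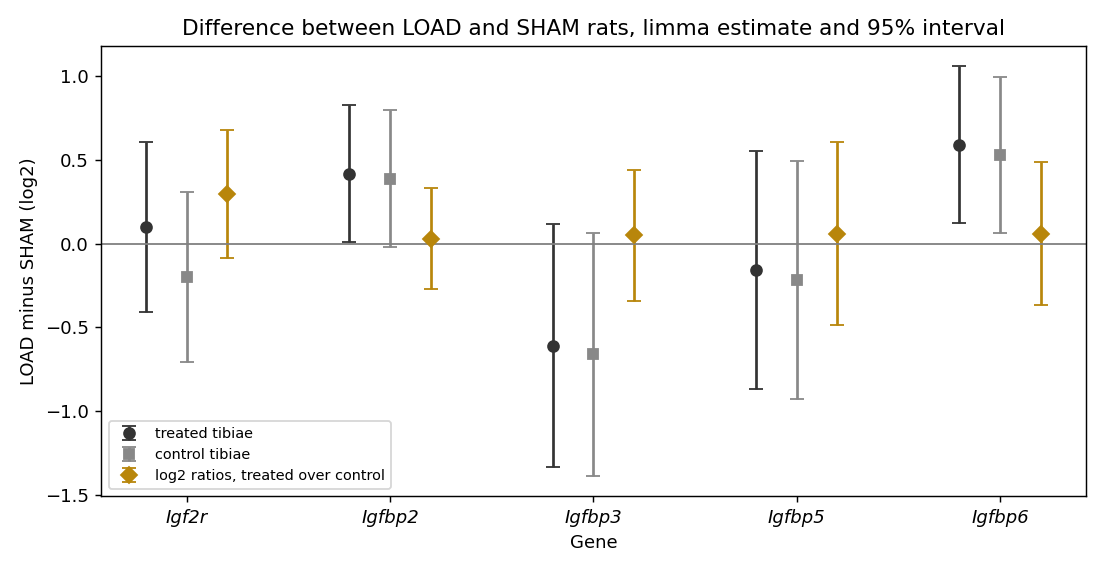
Difference LOAD minus SHAM (log2, vertical axis) of the 5 genes for treated tibiae, control tibiae and the ratio of treated over control, as limma estimates with 95% intervals. For Igfbp6 both level intervals lie above 0 (0.12 to 1.06 and 0.06 to 1.00), while its ratio interval spans 0 (-0.37 to 0.49).

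Markers of other cell types were compared between the same groups of rats, and none had an adjusted p under 0.2. The 4 tested blood and marrow genes were all lower in LOAD rats, with a median log2 difference of -0.21 in treated and -0.44 in control tibiae and a summed log2 level of 13.55 to 15.91 in LOAD treated, 13.71 to 15.71 in LOAD control, 14.84 to 15.46 in SHAM treated and 14.99 to 15.38 in SHAM control tibiae. Of the 5 bone markers, 5 were lower in the treated and 4 in the control tibiae of LOAD rats, with medians of -0.33 and -0.14. Of 6 muscle genes, 0 were higher and 6 lower in the treated tibiae of LOAD rats (median -0.31), while 5 were higher and 1 lower in the control tibiae (median 0.57). At an unadjusted p under 0.05, 0 blood and marrow genes were lower in the treated and 1 in the control tibiae. Of the bone markers 1 was lower in the treated and 1 in the control tibiae, and no muscle gene passed. Over all genes 2.64% and 3.22% were lower. The median summed blood and marrow level was 15.34 in LOAD treated, 14.75 in LOAD control, 15.26 in SHAM treated and 15.31 in SHAM control tibiae. The part of these cell types in the differences of Igfbp6, Igfbp2 and Igfbp3 was not tested.

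The variation of the binding proteins lay mainly between arrays. The SD of the array mean over the SD between the 2 tibiae of an array was 3.49 for Igfbp3 (0.72 against 0.21) and 2.56 for Igfbp2 (0.35 against 0.14), above the median of 1.92 over all genes. It was 1.68 for Igfbp5, 1.53 for Igfbp6 and 1.30 for Igf2r, below that median. Both tibiae of an array were read from the same spots, so that the rat and the spots cannot be told apart in these values.

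The levels of Igfbp2 and Igfbp6 went together over the 20 tibiae (Pearson r = 0.70, Spearman rho = 0.72), which share arrays in pairs and the 2 groups. Within LOAD rats r was 0.62 and rho 0.41, and within SHAM rats r was 0.41 and rho 0.48 (10 tibiae each). Over the 10 array means r was 0.75 and rho 0.79, and without LOAD 5 and SHAM 5 they were 0.60 and 0.67. The ratios of the neighbouring genes Igfbp2 and Igfbp5 ran in opposite directions over the 10 arrays (r = -0.78, rho = -0.64). This rested on LOAD 4 and SHAM 5, where Igfbp5 stood high and Igfbp2 low, and without those 2 arrays r was -0.28 over 8 arrays. The levels of Igfbp2 and Igfbp5 gave r = -0.54.

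**Figure D5:**
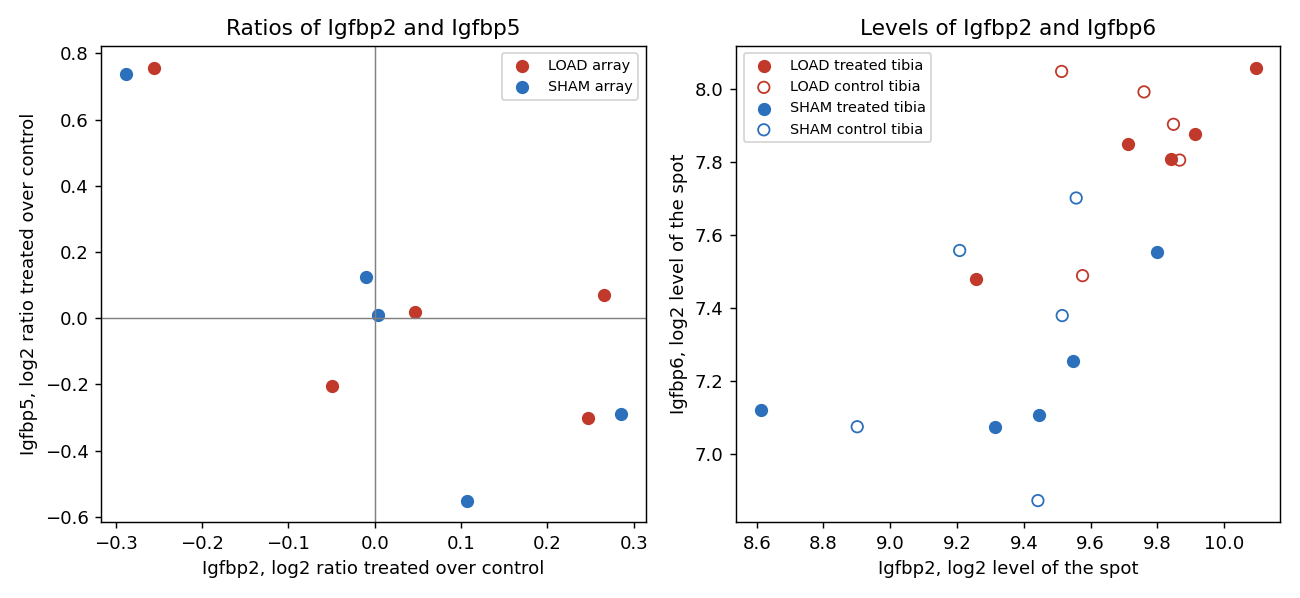
Left, log2 ratio (treated over control) of Igfbp5 against that of Igfbp2, a point per array. Right, log2 level of Igfbp6 against that of Igfbp2, a point per tibia (filled, treated; open, control). LOAD 4 and SHAM 5 make up the upper left corner of the left plot (r = -0.78 with them, -0.28 without), and LOAD tibiae fill the upper right of the right plot.

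For the 3 binding proteins with signal in at least 15 channels, the genes with the most similar ratios over the 10 arrays were sought among 1075 named genes. They were Ucn, Gast and Cbr1 for Igfbp2 (r = 0.93, 0.93 and 0.92), Tbxa2r, P2ry2 and Umod for Igfbp3 (0.86, 0.83 and 0.83), and Tnfrsf1a, Cd1d1 and Slc6a18 for Igfbp6 (0.88, 0.84 and 0.82). These are the highest of many correlations over 10 points that share arrays, dyes and normalization.

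Other genes that feed into or follow the axis were read by list. Of 10 tested genes of growth hormone and insulin input, 5 IGFBP proteases and their inhibitors, 10 signalling genes inside the cell and 9 genes of the mannose 6-phosphate receptor route, 0 passed an unadjusted p of 0.05 in the LOAD ratio, the SHAM ratio or LOAD minus SHAM, in either direction, against 3.34%, 0.68% and 1.49% of all tested genes. In LOAD minus SHAM the medians of the 4 lists were -0.04, 0.03, -0.04 and 0.02, against -0.01 over all tested genes. The insulin receptor Insr, a relative of the IGF receptor with signal in all 20 channels, had a log2 ratio of -0.14 ± 0.24 in LOAD and -0.05 ± 0.09 in SHAM (SD, n = 5 each, unadjusted p = 0.483 for the difference).

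Even the genes of lowest p in each list stayed above an unadjusted p of 0.05 in LOAD minus SHAM. The regulatory subunit of PI 3-kinase, Pik3r1, had a mean log2 ratio of 0.26 ± 0.51 in LOAD and -0.06 ± 0.67 in SHAM (unadjusted p = 0.346), and the adaptor Crk 0.22 ± 0.31 (n = 4) and -0.01 ± 0.35 (n = 5, unadjusted p = 0.273). Timp3, an inhibitor of metalloproteinases, had 0.20 ± 0.46 in LOAD and -0.12 ± 0.83 in SHAM (unadjusted p = 0.389). The lysosomal membrane protein Lamp2 had 0.07 ± 0.27 in LOAD and -0.07 ± 0.24 in SHAM (unadjusted p = 0.378), and the protease Ctss -0.07 ± 0.27 in LOAD and 0.04 ± 0.18 in SHAM (unadjusted p = 0.472). Sst and Ghrhr, the genes chosen by that rule from the list of growth hormone and insulin input, had signal in only 3 and 2 channels.

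Between the groups of rats, the 9 genes of the mannose 6-phosphate receptor route were split. In the treated tibiae 4 were higher and 5 lower in LOAD rats (differences from -0.60 to 0.24, median -0.36), with 1 lower at an unadjusted p under 0.05, where 2.64% of all genes were lower. In the control tibiae 4 were also higher and 5 lower (-0.72 to 0.25, median -0.50, against 0.01 over all 4472 tested genes), with 3 lower and 0 higher at that threshold, where 3.22% of all genes were lower. The blood and marrow genes given above had lower values in LOAD rats too, and their part in this was not tested. In the lists of growth hormone and insulin input, proteases and signalling, 0 genes passed an unadjusted p of 0.05 between the groups of rats in either direction, against 4.61% of all tested genes in the treated and 5.23% in the control tibiae.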

How the data were processed

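The files were scanner outputs, 1 per array, holding the intensities and the probabilities of signal (P ON, a fraction from 0 to 1) that the authors deposited per channel, with duplicate spots already combined, and a deposited table of log2 ratios, which equalled the unnormalized log2 ratio of the scanner intensities within 0.002. The deposited confidence of each spot, a fraction made by BlueFuse, served as a filter. The rat genes were named by RefSeq accession (GRCr8).

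After the study's methods, spots with a confidence under 0.11 were set missing, log2 ratios were normalized by loess (the span of 0.3 and 4 iterations were chosen here), and genes missing on more than 1 of 10 arrays were dropped. The methods also excluded spots flagged by hand and treated duplicates as separate spots, neither of which was applied here, so that other genes entered the fit. Ratios of treated over contralateral control were fitted in limma 3.58.1 (R 4.3.3) over 4707 genes, with Benjamini-Hochberg adjustment and a false discovery rate of 20%. The level per tibia was fitted in limma as separate channels after Aquantile scaling (4472 genes, intraspot correlation 0.739). The scripts were tested on simulated data. Replicates were different rats. Alternatives covered the normalization, filters, dye, scan batch, replicate block and leaving out each array. The members and lists were chosen with earlier results of these data known. Named genes were all Igf genes, the 2 of lowest p per list, and the 3 of most similar ratio; 1 gene chosen by this rule is not reported here. The number of arrays limits the precision, and the methods give about 10% cross-reactivity of spots.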

Additional observations from a re-analysis of the deposited data

Results flagged for a closer look

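None of the 30 groups of 5 values tested (ratios in LOAD and SHAM, and levels in the 4 kinds of tibia, for the 5 genes) held a value that stood apart from the other 4 by Dixon's criterion.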

How the results depend on the processing

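Without normalization, calls at the 20% false discovery rate numbered 9 in LOAD and 2 in LOAD minus SHAM, none of them an Igf gene, and the median log2 ratio of all genes was then -0.23 in LOAD and -0.42 in SHAM, relative to which changes have to be read. In the control tibiae of LOAD against SHAM, 17 genes passed with the replicate block and 3 with the scan batch as a block (chosen after the data were seen), against 0 in the model without them, and 0 to 8 passed when 1 array was left out (8 without LOAD replicate 3). The labels do not say that a number pairs rats, although same-numbered arrays shared a scan batch. Same-numbered arrays correlated at -0.41 to 0.07 in their ratios and at -0.10 to 0.24 in their mean levels. In ratios no LOAD array had the SHAM array of its own number as best match. In mean levels LOAD 2, 3 and 4 did, in treated tibiae LOAD 1 to 4 (r = 0.11 to 0.26), and in control tibiae LOAD 3 and 4. The numbers were not taken as pairs in the main model, and whether they carry more than the scan batch was not tested. With the replicate block the unadjusted p was 0.0432 (treated) and 0.0303 (control) for Igfbp3 and 0.0318 and 0.0448 for Igfbp2, with adjusted p of 0.467 to 0.529, and it gave 0 calls in LOAD minus SHAM and in the treated tibiae. At an unadjusted p under 0.05 the counts were 157 in LOAD (25 to 365 over the alternatives), 32 in SHAM (11 to 73), 70 in LOAD minus SHAM (9 to 179), 206 in the treated (159 to 407) and 234 in the control tibiae (143 to 426). Of the values of the 5 genes under an alternative, 563 differed from the reported value by less than the SD between replicates, 8 moved by more (7 without normalization, 1 with the channels of LOAD 2 exchanged) and 0 reversed among those at an unadjusted p under 0.05. The Igfbp6 difference between rats stayed above 0 in all 20 alternatives for either tibia (adjusted p 0.453 to 0.994 in control and 0.460 to 1.00 in treated tibiae). The mean of both tibiae was counted among the alternatives of either tibia. Many others only left out arrays, so that the alternatives are not independent of each other. The dimness of Igf2r and Igfbp5 limits what can be read from their ratios.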
